A study of Arabidopsis thaliana with 3 samples.

Results

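The library described here was made from the aerial parts of unstressed wild-type Arabidopsis thaliana plants of the Col-0 accession at 4 weeks of age. It holds 33587 ranked genes of the 33602 rows in the expression table, the other 15 rows being ribosomal RNA. Genes were assigned to the nucleus (33319 genes), the chloroplast (125) or the mitochondrion (143) by the prefix of the locus name, and to groups by the annotation text beside each locus. The series measured 3 libraries by RNA-seq, and the 2 lines that overexpress the tomato heat stress factor SlHsfA3 were not used here. The Col-0 plants carried no transgene, grew at 22 °C with 16 h of light and 8 h of dark, and 20 of them were pooled into 1 library, so no difference below was tested against the spread between plants. Intervals are exact 95% Poisson or binomial intervals and cover counting error only. Reads without molecular identifiers are not independent molecules.

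A green shoot makes messenger RNA in the nucleus, while the chloroplast and the mitochondrion transcribe small genomes of their own. The large complexes of photosynthesis are built from both sources: the chloroplast encodes the core subunits of the photosystems and the large subunit of Rubisco, the enzyme that fixes carbon dioxide, and the nucleus encodes the antenna proteins, the outer subunits and the small subunit of Rubisco. Nuclear messenger RNA carries a long poly(A) tail, whereas in plant organelles a poly(A) tail mostly marks RNA for decay. This library was purified on poly(A), and the part of that step in the organelle levels was not tested.

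The library held 9968154 reads in the table, of which 2649694 (26.6%) lay in the 15 ribosomal RNA rows and 7318460 in the ranked genes. Levels are given as RPKM, the reads of a gene divided by its length and by the reads of all rows, on the usual scale of reads per kilobase and megaread. A single read in a gene of 1 kb was worth 0.100 RPKM, and a count of 0 in such a gene allowed up to 3 reads or 0.301 RPKM, a one-sided 95% limit, whereas the other intervals are two-sided. At least 1 read was found in 22036 genes (65.6% of those ranked), and 17271 genes (51.4%) reached 1 RPKM. The median over all genes was 1.21 RPKM, and over genes with a read 5.59 RPKM. The 11551 genes without a read were shorter (median 855 bases) than those with reads (1478 bases). Among the genes at 1 RPKM or more, 345 rested on fewer than 10 reads.

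The levels were spread very unevenly over the genes. RBCS1A alone held 1.56% of the summed RPKM, the top 10 genes held 8.81%, the top 100 genes 26.0% and the top 1000 genes 56.1%. Only 677 genes were needed for 50% of the sum and 7122 genes for 90% of it. The gene at rank 100 stood at 538 RPKM, that at rank 1000 at 84.3 RPKM, that at rank 5000 at 18.1 RPKM and that at rank 10000 at 6.80 RPKM. At 1000 RPKM or above stood 44 genes, 36 of the nucleus and 8 of the chloroplast. Among the 50 genes of highest level, 31 of the 49 pairs of neighbours in rank had counting intervals that overlapped, so the order of many neighbours is not resolved even at this depth.

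**Figure D1:**
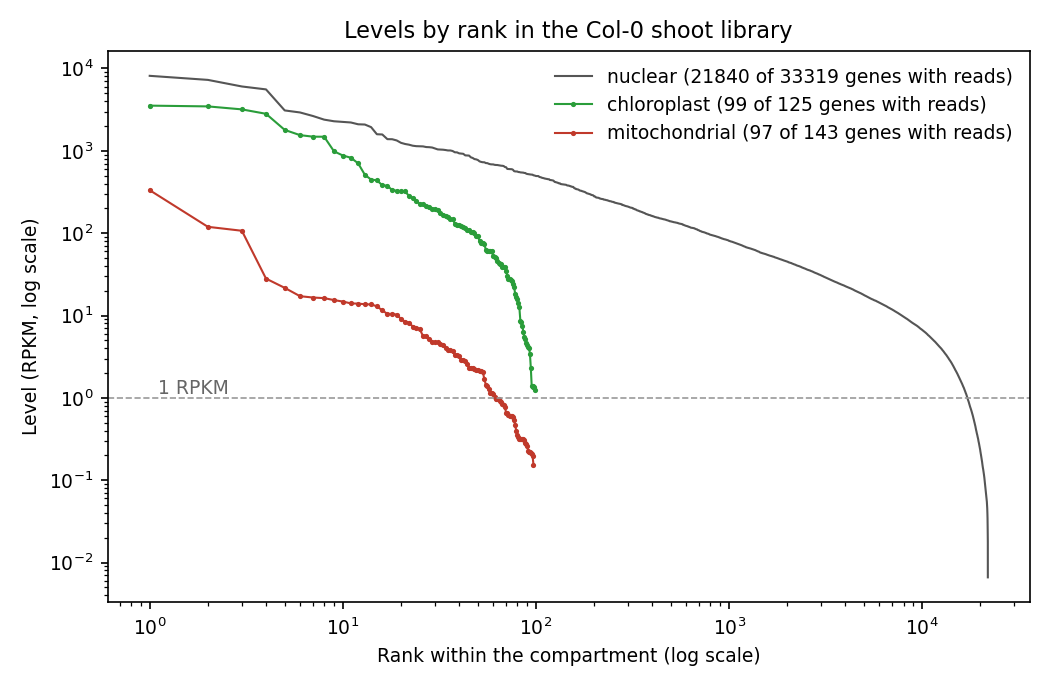
Level in RPKM (log scale) against rank within the nuclear, chloroplast and mitochondrial genes with at least 1 read in the Col-0 library (log scale), the dashed line marking 1 RPKM. The nuclear line starts at 8146 RPKM, the chloroplast line at 3540 RPKM and the mitochondrial line at 333 RPKM.

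By compartment, nuclear genes held 93.6% of the summed RPKM, chloroplast genes 6.17% and mitochondrial genes 0.185%. By reads the chloroplast share was 3.19% and the mitochondrial share 0.0730%. The median gene stood at 1.202 RPKM in the nucleus, at 45.8 RPKM in the chloroplast and at 0.625 RPKM in the mitochondrion. All 88 chloroplast protein genes had reads (against 65.6% of all genes). At 100 RPKM or above stood 48 of them and 3 of the 143 mitochondrial genes, against 812 of all 33587 genes. The 5 chromosomes of the nucleus ranged from 14.4% of the summed RPKM on chromosome 4 to 26.2% on chromosome 1. Of the top 10 genes, 6 were nuclear and 4 were chloroplast genes.

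The small subunit of Rubisco led the nuclear genes. RBCS1A (AT1G67090) had the highest level of the library at 8146 RPKM (8091 to 8202) from 83234 reads. RBCS2B (AT5G38420) stood at 2648 RPKM, RBCS1B (AT5G38430) at 2393 RPKM and RBCS3B (AT5G38410) at 2286 RPKM, ranks 11 to 13. RBCS1A therefore gave 56.2% of the reads of the 4 genes (56.0 to 56.5%), and the other members between 13.02% and 15.4% each. The reads of RBCS2B (22730) and RBCS3B (22760) were nearly the same, and their order by RPKM follows the lengths of 861 and 999 bases used by the authors. In the reference transcripts, 12.1% of the 100-base windows of RBCS3B and 7.41% of those of RBCS1B occur elsewhere in the genome, so reads of these copies could have been shared, while no window of RBCS1A or RBCS2B does. RCA (AT2G39730), the Rubisco activase that frees the enzyme of inhibiting sugar phosphates, stood at 6048 RPKM at rank 3 and had more reads than any other ranked gene (110514). The chloroplast gene of the large subunit, rbcL, stood at 825 RPKM at rank 57, so that the 4 small subunit genes together had 18.8 times its level. The length used for rbcL is its coding length (1440 bases), whereas that of RBCS1A (1025 bases) exceeds its coding length (543 bases).

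The promoters of the 4 RBCS genes are printed because their levels lead the library and because the motifs in them differ between copies. Each runs 5′ to 3′ on the gene strand over 300 bases, 250 before and 50 after the start annotated by RefSeq on TAIR10.1. The windows are chr1:25049618-25049917 for RBCS1A, chr5:15382022-15382321 for RBCS2B, chr5:15385271-15385570 for RBCS1B and chr5:15378367-15378666 for RBCS3B, all on the minus strand. Capitals mark TATAAA (the TATA box, on the gene strand) and, on either strand, CACGTG (the G-box), GATAAG (the I-box), AAACCCTA (the telo box) and GGCCCA (site II).
RBCS1A: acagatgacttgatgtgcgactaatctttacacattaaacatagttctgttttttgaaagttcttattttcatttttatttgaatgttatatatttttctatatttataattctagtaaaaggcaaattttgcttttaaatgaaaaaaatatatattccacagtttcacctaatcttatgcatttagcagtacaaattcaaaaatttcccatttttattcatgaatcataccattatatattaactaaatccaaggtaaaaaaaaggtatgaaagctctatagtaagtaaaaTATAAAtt
RBCS2B: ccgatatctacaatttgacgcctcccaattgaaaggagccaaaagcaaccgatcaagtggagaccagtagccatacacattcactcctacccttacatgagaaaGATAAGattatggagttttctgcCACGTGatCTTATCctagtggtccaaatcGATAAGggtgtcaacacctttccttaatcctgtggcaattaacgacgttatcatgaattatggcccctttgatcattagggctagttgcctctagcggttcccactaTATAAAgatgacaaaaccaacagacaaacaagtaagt
RBCS1B: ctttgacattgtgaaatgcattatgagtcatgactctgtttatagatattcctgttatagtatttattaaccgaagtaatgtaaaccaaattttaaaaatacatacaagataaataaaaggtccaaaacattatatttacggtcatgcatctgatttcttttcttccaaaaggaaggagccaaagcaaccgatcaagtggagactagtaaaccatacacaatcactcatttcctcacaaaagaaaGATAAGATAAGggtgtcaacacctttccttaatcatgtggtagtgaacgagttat
RBCS3B: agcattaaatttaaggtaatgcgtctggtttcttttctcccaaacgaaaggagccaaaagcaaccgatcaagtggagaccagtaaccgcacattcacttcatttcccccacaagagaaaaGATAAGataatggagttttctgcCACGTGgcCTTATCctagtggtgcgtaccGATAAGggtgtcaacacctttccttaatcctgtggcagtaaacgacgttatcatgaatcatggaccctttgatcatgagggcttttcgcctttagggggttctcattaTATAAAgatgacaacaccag
RBCS2B and RBCS3B share the same array: a G-box at -123 in RBCS2B and -107 in RBCS3B, with I-boxes at -146, -115 and -94 in the former and at -130, -99 and -78 in the latter, positions being the first base of the match counted from the annotated start. Shifted by 16 bases, their windows are identical at 60.6% of 284 positions. RBCS1B has overlapping I-boxes at -5 and 1, and RBCS1A has only TATAAA, at 43. The RefSeq transcripts of these genes are longer than the models in the table (1268 against 1025 bases for RBCS1A and 1894 against 808 bases for RBCS1B), so the annotated start may lie upstream of the one the reads came from, and a motif missing from this window says only that its letters are not there.

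Photosynthesis took most of the remaining top places. Of the 25 highest nuclear genes, 17 belonged to 7 lists of photosynthesis genes, and of the top 100 genes 47 did, with a further 12 chloroplast protein genes and 41 others. The 85 nuclear members of these lists all had reads, 80 of them lay within the top 1000 (against 2.98% of all genes), and together they held 14.9% of the summed RPKM. The lists were chosen with earlier results of these data known, so these counts describe the lists and are no test.

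The antenna proteins bind chlorophyll and pass light energy to the photosystems. All 21 antenna genes stood at 33.3 RPKM or above, with a median of 658 RPKM. The LHCB1 genes, which encode the main trimeric antenna of photosystem II, were far from equal: LHCB1.3 (AT1G29930) stood at 1940 RPKM, LHCB1.5 (AT2G34420) at 1590 RPKM, LHCB1.1 (AT1G29920) at 1250 RPKM, LHCB1.2 (AT1G29910) at 456 RPKM and LHCB1.4 (AT2G34430) at 119 RPKM. LHCB1.3 thus took 36.2% of the summed level of the 5 genes, and between 1.51% and 4.44% of the 100-base windows of each occur elsewhere. Of the photosystem I antenna, LHCA3 (1211 RPKM) and LHCA4 (1187 RPKM) had overlapping intervals, LHCA1 stood at 920 RPKM and LHCA2 at 598 RPKM, while LHCA5 (54.7 RPKM), LHCA6 (55.0 RPKM) and LHCB4.3 (33.3 RPKM) were the lowest of the list. PSBS, the protein that sets off the dissipation of excess light as heat, stood at 1011 RPKM. The promoter of LHCB1.5 (chr2:14523519-14523818, minus strand) is printed as one with TATAAA shortly before the annotated start, which few of the highest genes have. The TATAAA lies at -31, and the transcript has the same length in RefSeq and in the table.
LHCB1.5: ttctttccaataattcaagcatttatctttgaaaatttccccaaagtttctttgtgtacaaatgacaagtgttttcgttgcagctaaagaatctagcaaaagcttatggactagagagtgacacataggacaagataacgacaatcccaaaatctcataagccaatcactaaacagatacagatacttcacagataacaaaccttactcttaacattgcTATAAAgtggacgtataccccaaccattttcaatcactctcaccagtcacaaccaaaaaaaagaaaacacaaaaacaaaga

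The other photosynthetic subunits encoded in the nucleus also differed within each complex. The 13 photosystem I genes ran from 169 RPKM (PSAE2) to 1137 RPKM (PSAG) around a median of 662 RPKM. The 12 photosystem II genes ran from 57.0 RPKM (PSB28, an assembly factor) to 3095 RPKM (PSBR, rank 8) around 515 RPKM, with PSBO1 of the oxygen-evolving complex at 1112 RPKM against 370 RPKM for its paralog PSBO2. Plastocyanin, the copper protein that carries electrons to photosystem I, showed a similar split, with PETE2 at 1386 RPKM and PETE1 at 90.1 RPKM. In the Calvin cycle, which builds sugar phosphates from the fixed carbon, the plastid aldolase FBA2 led at 2101 RPKM, followed by GAPA1 (1139 RPKM), FBA1 (1132 RPKM), PRK (1097 RPKM) and GAPB (995 RPKM), and RPI was lowest at 81.4 RPKM. Photorespiration recovers carbon when Rubisco takes up oxygen. Its 11 genes had a median of 600 RPKM and were led by CAT2, the leaf catalase, at 2924 RPKM (rank 9), GLDP1 of the glycine decarboxylase at 1337 RPKM and the glycolate oxidase GOX1 at 1036 RPKM, with PGLP1 lowest at 159 RPKM.

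Genes outside photosynthesis also stood near the top. ECS1 (AT1G31580) was second in the library at 7272 RPKM (7209 to 7336). AT2G25510, a locus annotated as an unknown protein with a length of 571 bases, was at rank 4 with 5573 RPKM (5512 to 5635), and AT5G42530, also an unknown protein, was at rank 15 with 2210 RPKM. The glutathione transferase GSTF2 stood at 2244 RPKM, the cytosolic chaperone HSC70-1 at 2086 RPKM, the glycine-rich protein GRP-3 at 1580 RPKM and TCTP, the translationally controlled tumor protein homolog, at 1383 RPKM. GSTF2 overlaps a neighbour on the other strand in the reference, as 23 of the top 100 genes do. Over all genes 6879 do, of 32908 with a reference sequence. Genes named above that also overlap such a neighbour include RCA, PSBR, CAT2, LHCB1.3, LHCB1.5, GLDP1, LHCA4, PSAG, GOX1, PSAE2 and RPI. The library preparation named no step that keeps the strand, so the reads of such pairs cannot be told apart. The other unknown proteins among the 5 highest were AT2G01021 (879 RPKM), AT1G09310 (819 RPKM) and LURP1 (654 RPKM). AT2G01021 is 102 bases long and all of its 100-base windows occur more than once in the genome, and its locus number follows that of a ribosomal RNA row.

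Chloroplast protein genes differed by class and, within a class, by gene. The ATP synthase genes atpE (3540 RPKM, 3481 to 3599) and atpB (3465 RPKM, 3435 to 3495) led the genome at ranks 5 and 6 with overlapping intervals, and are neighbours known to be transcribed together. The other 4 subunits, atpA, atpF, atpH and atpI, lay between 103 and 147 RPKM. In photosystem II the reaction centre gene psbA stood at 2817 RPKM, psbM at 1795 RPKM, psbD at 1551 RPKM and psbC at 1483 RPKM, and the other 11 genes lay between 60.6 and 377 RPKM. The photosystem I core genes psaA and psaB, which are transcribed together, had 165 and 175 RPKM, and psaJ was highest of that class at 284 RPKM. Of the NDH complex, which cycles electrons around photosystem I, ndhK (1486 RPKM), ndhJ (986 RPKM) and ndhC (877 RPKM) form a cluster of genes and stood far above the other 9 gene rows, which ranged from 25.9 to 91.4 RPKM. ndhK is the locus ATCG00430, which the table annotates as a photosystem II protein. The ribosomal protein gene rpl32 had 3188 RPKM over only 159 bases, and the 23 rows of ribosomal proteins ran down to 24.2 RPKM (rps16). Of the chloroplast RNA polymerase, rpoA stood at 215 RPKM, and rpoB, rpoC1 and rpoC2 stood between 7.39 and 8.54 RPKM. The lowest gene with a symbol was ycf2, at 4.65 and 4.43 RPKM in its copies of the inverted repeat. Of the 37 chloroplast tRNA genes 11 had reads, 54 in all.

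**Figure D2:**
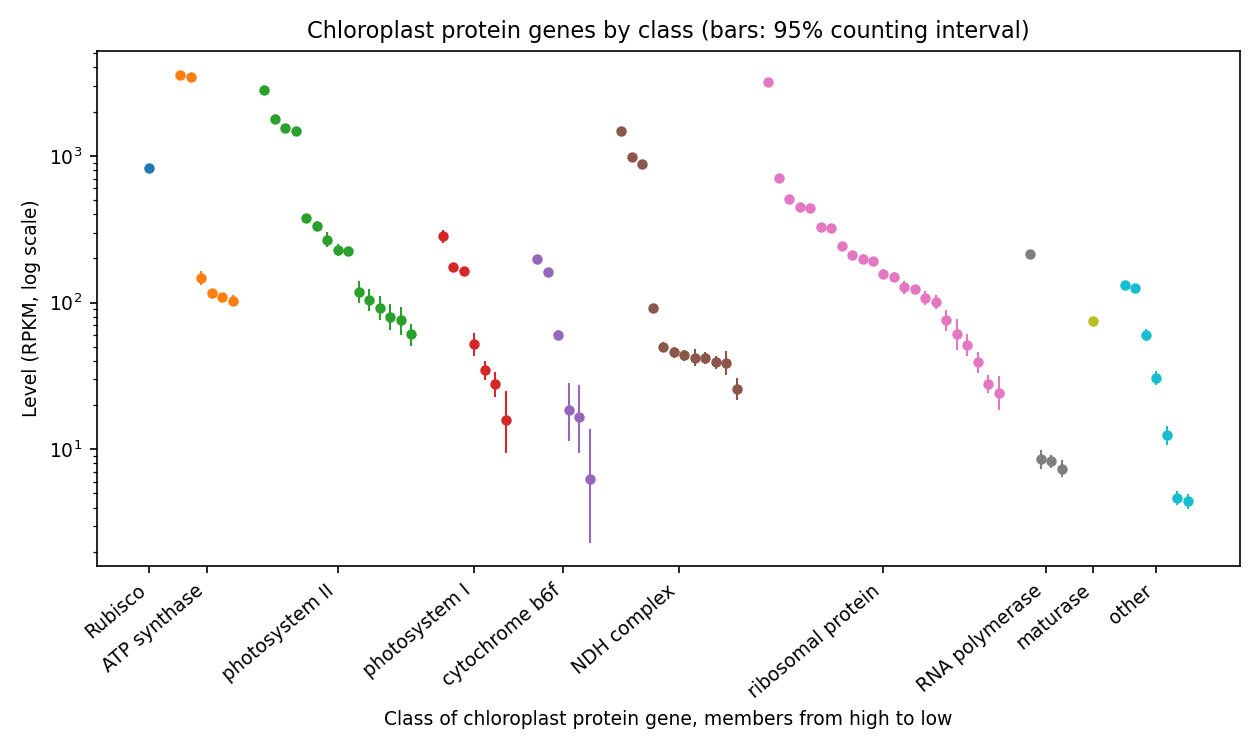
Level in RPKM (log scale) of each chloroplast protein gene with a symbol, grouped by class and ordered from high to low, with bars for the 95% counting interval. In the ATP synthase class atpE and atpB stand at 3540 and 3465 RPKM, apart from the other 4 genes at 103 to 147 RPKM.

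The chloroplast genome carries an inverted repeat, and each gene in it is listed as a pair of rows. The copies had nearly the same reads: 3608 and 3679 for rpl2, 1508 and 1530 for rps7, 510 and 534 for ndhB and 319 and 304 for ycf2. In each of these pairs the interval of the first copy's share of the reads included 50%. It did not for rpl23, where the first copy had 54.1% (50.2 to 57.9%), nor for the rps12 exon rows with 45.7% (43.4 to 48.0%). Since all windows of rpl23, rps7 and ycf2 and 86.5% of those of rpl2 occur more than once, the rows of a pair are not separate measurements.

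Comparing complexes built from both genomes, per length, the 13 nuclear photosystem I genes summed to 8114 RPKM and the 7 chloroplast rows to 754 RPKM, 10.8 times less. For photosystem II the sums were 8727 RPKM over 12 nuclear genes and 9607 RPKM over 15 chloroplast genes, a ratio of 0.908, although the nuclear median was 2.26 times the chloroplast one. The sums are not of subunits alone. The 7 chloroplast rows count ycf3 (27.6 RPKM) and ycf4 (34.5 RPKM) beside the psa genes, and the 12 nuclear genes count the assembly factor PSB28. Where matched to the reference, the chloroplast lengths used equal the coding length (psaA, 2253 bases). Nuclear lengths can exceed it (PSAG, 780 bases against 483). These ratios set poly(A)-tailed nuclear messengers beside organelle RNA in a poly(A)-purified library, and are levels of reads only.

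Mitochondrial genes were low. The highest was ATMG00030, a hypothetical protein, at 333 RPKM (313 to 353), whose locus number follows that of the 26S ribosomal RNA. ATMG01080, which encodes subunit 9 of the ATP synthase, had 119 RPKM, and ATMG00280, a fragment annotated as the catalytic domain of the Rubisco large subunit, had 107 RPKM. No further gene passed 28.1 RPKM (ATMG00640, ATP synthase). ATMG00480 stood at 21.7 RPKM, ATMG00410 at 17.2 RPKM, ATMG00160 (cytochrome oxidase subunit 2) at 16.5 RPKM, ATMG01190 at 16.3 RPKM, ATMG01360 at 15.4 RPKM and ATMG00730 at 14.8 RPKM, and neighbours in this order had overlapping intervals. Among the 50 highest mitochondrial genes 47 of the 49 pairs of neighbours overlapped, the exceptions being the steps from ATMG00030 to ATMG01080 and from ATMG00280 to ATMG00640. By class, the 8 ATP synthase genes had a median of 16.7 RPKM, the 6 genes of cytochrome oxidase and apocytochrome b 9.76 RPKM, the 14 NADH dehydrogenase genes 4.27 RPKM and the 5 cytochrome c biogenesis genes 1.15 RPKM. The 64 hypothetical proteins had a median of 0.343 RPKM, and 46 of them had reads (against 65.6% of all genes).

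A copy of much of the mitochondrial genome lies on chromosome 2, within the range of loci AT2G07660 to AT2G07840. This range also holds genes that share no 100-base window with the mitochondrial genome, such as MCM5 (AT2G07690) and ABCC13 (AT2G07680). Of its 145 loci, 98 share at least 50% of their 100-base windows with the mitochondrial genome of the reference, and these held 5424 reads, against 5343 in the 143 mitochondrial genes themselves. The highest were AT2G07732 (109 RPKM), annotated like ATMG00280, and AT2G07688 (102 RPKM), a pseudogene similar to the psbA protein and the highest pseudogene of the table. Reads of these loci and of the mitochondrial genes cannot be told apart where the windows are shared.

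The annotation groups differed widely in how many of their genes were present. Of the 79 genes annotated as photosystem or antenna, 78 reached 1 RPKM (against 51.4% of all genes). In this group 57 lay within the top 1000 (against 2.98% of all genes), and the median was 374 RPKM. Ribosomal proteins came next by median: of 403 genes, 361 reached 1 RPKM, 133 lay within the top 1000, the median was 40.02 RPKM and the group held 5.95% of the summed RPKM. The 32 proteasome genes had 31 members at 1 RPKM or more around a median of 28.6 RPKM and PAG1 highest at 92.4 RPKM. Translation factors had a median of 15.2 RPKM and were led by AT5G60390, an elongation factor Tu family protein, at 794 RPKM. Histones stood at 8.35 RPKM, and AT4G40040 was highest at 229 RPKM.

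Genes with regulatory annotations were rare among the highest ranks, and their medians lay on both sides of the 1.21 RPKM of all genes. Of 1090 genes annotated as transcription factors, 822 had reads (against 65.6% of all genes). In this group 578 reached 1 RPKM (53.0%, near the 51.4% of all genes) and 5 lay within the top 1000 (against 2.98% of all genes). The median was 1.23 RPKM, with WRKY70, a regulator of salicylic acid responses, highest at 220 RPKM. Members are text matches, and LHY (248 RPKM, rank 260), annotated as a Homeodomain-like superfamily protein, is not among them. Protein kinases had a median of 2.96 RPKM over 856 genes (SOBIR1 highest at 223 RPKM), and RING or U-box proteins 2.76 RPKM over 499 genes. Pentatricopeptide repeat genes, which act on organelle RNA, were nearly all detected (249 of 263, against 65.6% of all genes). Their median was 0.857 RPKM, and none of them lay within the top 1000. F-box genes stood apart from these, since 376 of 582 had no read (against 34.4% of all genes) and 120 reached 1 RPKM (against 51.4%). Disease resistance genes had reads in 160 of 180 cases (against 65.6% of all genes), at a median of 2.2 RPKM.

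Enzyme families and small secreted proteins were uneven. Cytochrome P450 genes had a median of 0.328 RPKM over 223 genes but reached 197 RPKM in CYP83B1, which acts in glucosinolate synthesis. The 98 peroxidase genes ranged up to 1032 RPKM in PRXR1 around a median of 1.16 RPKM. Lipid-transfer proteins reached 773 RPKM in LTP1 around a median of 0.374 RPKM. Of 201 defensin-like or thionin genes 175 had no read (against 34.4% of all genes), while PDF1.2, a plant defensin, stood at 388 RPKM. Of the 5583 unknown proteins 3486 had reads and 2622 (47.0%) reached 1 RPKM, against 65.6% and 51.4% of all genes, 79 lay within the top 1000, against 2.98% of all genes, and the group held 9.75% of the summed RPKM, of which AT2G25510 and AT5G42530 were the largest parts.

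**Figure D3:**
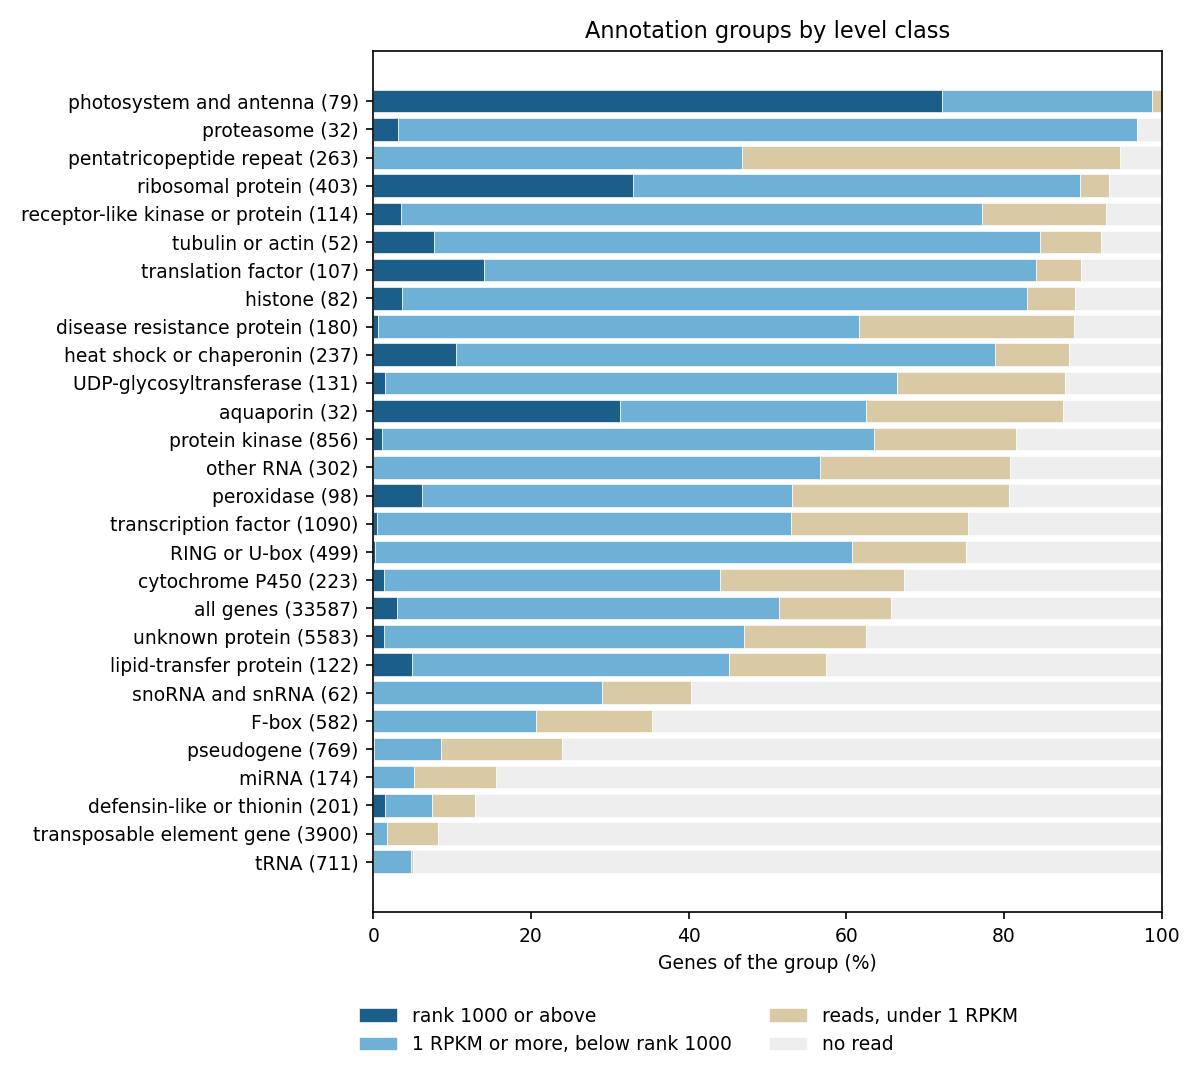
Share of the genes of each annotation group (percent, group size in brackets) that lay within the top 1000, reached 1 RPKM below that rank, had reads under 1 RPKM, or had no read. Of photosystem and antenna genes 57 of 79 lay within the top 1000, and of transposable element genes 3579 of 3900 had no read.

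Most kinds of genes outside the protein-coding set had few members with reads, against 65.6% of all genes. Of 3900 transposable element genes 321 had reads and 69 reached 1 RPKM, the highest being AT2G07080 at 78.8 RPKM, SADHU1-1 at 39.7 RPKM and AT1G80020 at 17.1 RPKM. Of 769 pseudogenes 184 had reads, and after AT2G07688 the highest were AT4G04692 (41.8 RPKM) and RLP49 (30.5 RPKM). Genes named other RNA were the exception, with reads in 244 of 302 cases and a median of 1.35 RPKM. The 5 highest non-coding genes were AT4G13505 (68.1 RPKM), AT2G35945 (62.4 RPKM), MIR163 (56.5 RPKM), AT1G68568 (55.3 RPKM) and AT3G22121 (48.6 RPKM). All of these but MIR163, a precursor of a microRNA, overlap a protein gene on the other strand, so that reads of the neighbour could have been counted for them. Of 174 miRNA genes 27 had reads, of 62 snoRNA and snRNA genes 25, and of 711 tRNA genes 36.

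Families with members known from different organs were set side by side. Among actins, which form filaments of the cytoskeleton, the vegetative genes stood at 351 RPKM (ACT2), 165 RPKM (ACT7) and 93.3 RPKM (ACT8). The reproductive genes, known from pollen and ovules, stood at 10.6 RPKM (ACT3), 10.4 RPKM (ACT1), 6.51 RPKM (ACT11), 0.0690 RPKM (ACT12, 1 read) and 0.0650 RPKM (ACT4, 1 read), all below the lowest vegetative gene. Tubulins ran from 99.6 RPKM (TUA6) to 3.90 RPKM (TUB1). Of the plasma membrane aquaporins, which let water through, PIP2A (709 RPKM) and PIP1B (684 RPKM) led and PIP2;4 was lowest at 1.14 RPKM. The metal-binding metallothioneins MT2B (668 RPKM), MT3 (513 RPKM) and MT2A (494 RPKM) stood above MT1A (82.1 RPKM) and MT1C (11.0 RPKM). Genes often used as references in qPCR covered a wide span, from UBQ10 at 1154 RPKM and GAPC2 at 676 RPKM to PTB1 at 6.77 RPKM.

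The label of unstressed aerial parts was checked with marker lists. Seed genes were practically absent. Of 12 genes, storage proteins and oleosins among them, 11 had no read (against 34.4% of all genes) and FUS3 had 2 reads. Of 10 root markers EXPA7, RHD6, CASP1, WOX5, WER and COBL9 had no read, and PHT1;1 (2.31 RPKM), NRT2.1 (0.686 RPKM) and IRT1 (0.291 RPKM) were low, but PYK10, a beta-glucosidase known from roots and hypocotyls, stood at 33.2 RPKM. Of 7 epidermal and cuticle genes, 4 lay within the top 1000 (against 2.98% of all genes). In this list 2 stood at 100 RPKM or above (against 812 of all 33587 genes). LTP1 had 773 RPKM, CUT1 308 RPKM and FDH 89.8 RPKM, and ATML1 was lowest at 12.5 RPKM. The phloem genes ran from 109 RPKM (SWEET11) through SUC2 (29.7 RPKM), HA3 (27.6 RPKM), APL (6.13 RPKM) and SEOR1 (5.76 RPKM) to 5.60 RPKM (SWEET12). All markers of xylem, guard cells and trichomes had reads. Of them, 5 of 9, 7 of 10 and 3 of 5 reached 1 RPKM, against 51.4% of all genes. Their highest genes were CESA4 (8.29 RPKM), FAMA (10.7 RPKM) and TTG1 (26.3 RPKM), and their lowest were VND7 (3 reads), EPF1 (1 read) and GL3 (7 reads). Of the shoot meristem, KNAT1 (12.3 RPKM), CLV1 (12.2 RPKM) and STM (6.84 RPKM) were present and WUS and CLV3 had no read.

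Floral genes were present at low level. The floral organ genes SEP1 (5.03 RPKM, 72 reads), AP1 (4.17 RPKM, 51 reads) and AP3 (3.29 RPKM, 34 reads) led their list of 8, and CAL had 3 reads. Of 11 tapetum and pollen genes 10 had reads, against 65.6% of all genes. ATA20 (3.94 RPKM), ATA27 (3.90 RPKM) and GRP17 (3.01 RPKM) were highest and TDF1 had no read. Among genes of the floral transition, SVP (45.8 RPKM) and SOC1 (43.7 RPKM) were highest, FT had 6 reads, CO 5 reads, TSF 1 read and LFY none. Whether the pooled plants had bolted is not given in the sources used here.

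Stress genes were unequal among themselves. Of the heat stress list only the Hsp70 gene stood high (156 RPKM), HSFA2 had 11.8 RPKM and HSP101 had 9.10 RPKM, APX2 had 1 read, and Hsp22.0-ER and Hsp25.3-P had no read. Among cold, drought and abscisic acid genes KIN2 (122 RPKM), ERD10 (99.6 RPKM) and COR47 (79.1 RPKM) were highest and RD29B (0.705 RPKM) lowest. The defense genes were led by PR1, a marker of salicylic acid responses, at 599 RPKM (rank 86), followed by PDF1.2 at 388 RPKM, PR2 at 388 RPKM, PR5 at 261 RPKM, VSP1 at 64.9 RPKM and VSP2 at 44.2 RPKM. Of the 6, 4 lay within the top 1000 (against 2.98% of all genes), and VSP1 and VSP2 did not. Senescence genes ran from SAG13 at 165 RPKM, NAP at 45.1 RPKM and WRKY53 at 31.3 RPKM to SAG12 at 1.201 RPKM.

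The circadian clock genes are expressed at fixed times of day. LHY (248 RPKM) and CCA1 (105.6 RPKM), which peak around dawn, were the highest of 12, followed by RVE8 (50.4 RPKM), while FKF1, which peaks late in the day, had no read. The hour of harvest is not given in the sources used here.

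**Figure D4:**
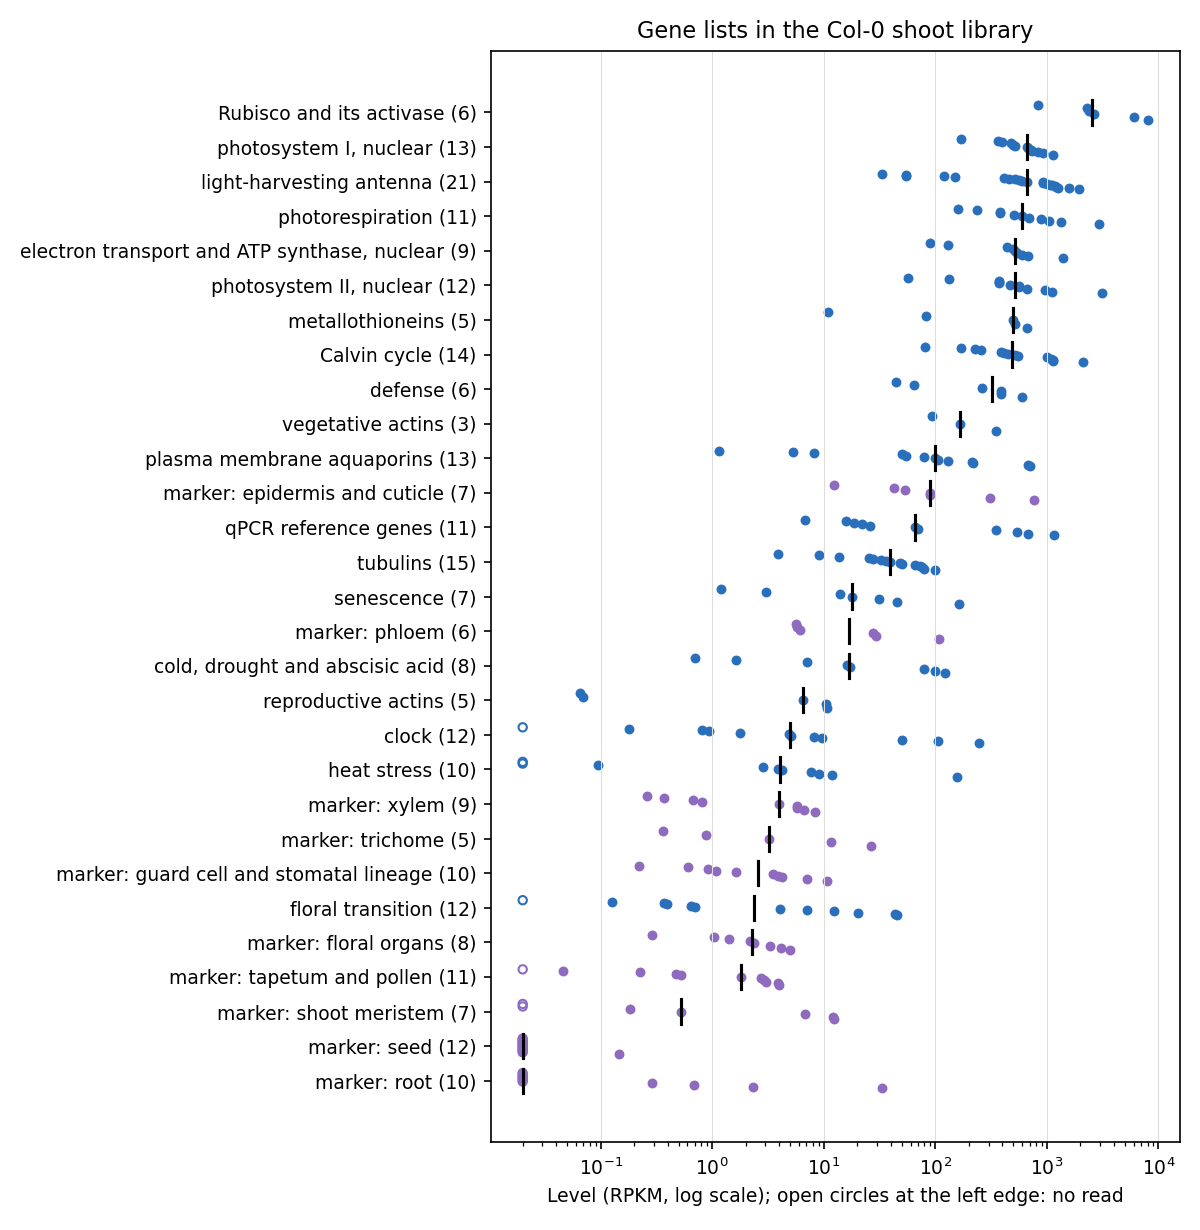
Level in RPKM (log scale) of each member of 29 gene lists, 10 of them marker lists (purple), with a black line at the median and open circles at the left edge for members without a read (numbers of members in brackets). Rubisco and its activase stand highest with a median of 2521 RPKM, and the seed and root lists have medians of 0.

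Sequence features were compared across rank bands of the 26684 nuclear protein genes with an entry in the reference. The promoter motifs took no part in the ranking, whereas length did, since RPKM divides by it. The median coding length was 783 bases in the top 100, 870 bases in the next 900, 1065 bases in the 4000 after those and 1188 bases below that, and 720 bases in genes without reads. The G-box was found in 20.0% of the top 100 promoters, 12.9%, 9.98% and 8.19% of the next bands, 4.52% of those without reads and 7.85% of all. The I-box was found in 32.0% of the top 100 promoters and in 20.1%, 16.1%, 14.3% and 14.1% of the following bands, with 14.8% of all. Site II showed another course, with 13% in the top 100, 26.9% in the next 900, 21.2% and 16.8% below, and 6.70% in genes without reads. TATAAA anywhere in the window was found in 35.5% to 42.5% of the promoters of a band. Starting between -60 and -20 it was found in 4 of the top 100 promoters, in 11.4%, 9.5% and 10.3% of the next bands, in 13.6% of those without reads and in 10.9% of all. Positions count from the RefSeq start, and TATAAA lay after it in RBCS1A (43), RBCS2B (14) and RBCS3B (31). A low share before that start therefore does not show that these genes lack a TATA box.

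The top 100 were not uniform in their motifs. Of the top 100 nuclear protein genes, 54 belonged to the photosynthesis lists, and their promoters held the G-box in 15 cases and the I-box in 22, against 5 and 10 of the other 46. Over all 85 list members the G-box was found in 27.1% and the I-box in 37.6%, with the I-box in 4 of 5 nuclear genes of Rubisco and its activase and 9 of 13 nuclear photosystem I genes, and the G-box in 8 of 12 nuclear photosystem II genes. In the Calvin cycle list the G-box and the I-box were found in 2 of 14 promoters each. Ribosomal proteins had a different pair of motifs: of 364 promoters 38.7% held the telo box against 6.61% of all, 53.3% held site II against 15.6%, and 24.2% held both against 1.7%. Site II was also found in 17 of 32 proteasome promoters. F-box genes held the telo box in 23.4%, although most of them had no read.

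The promoter of AT4G27090, annotated as ribosomal protein L14, is printed as the highest ribosomal protein gene that holds both motifs, at 290 RPKM and rank 218. The window is chr4:13595203-13595502 on the minus strand of TAIR10.1, with the telo box at -49 and site II at -94 on the other strand and at -62 on the gene strand.
AT4G27090: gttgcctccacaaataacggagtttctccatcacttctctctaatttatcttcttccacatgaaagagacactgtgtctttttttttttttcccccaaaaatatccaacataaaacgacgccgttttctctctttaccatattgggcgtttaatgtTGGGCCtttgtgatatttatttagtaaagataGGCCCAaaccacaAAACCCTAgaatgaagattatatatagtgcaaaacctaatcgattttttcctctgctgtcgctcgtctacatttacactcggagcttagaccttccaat

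**Figure D5:**
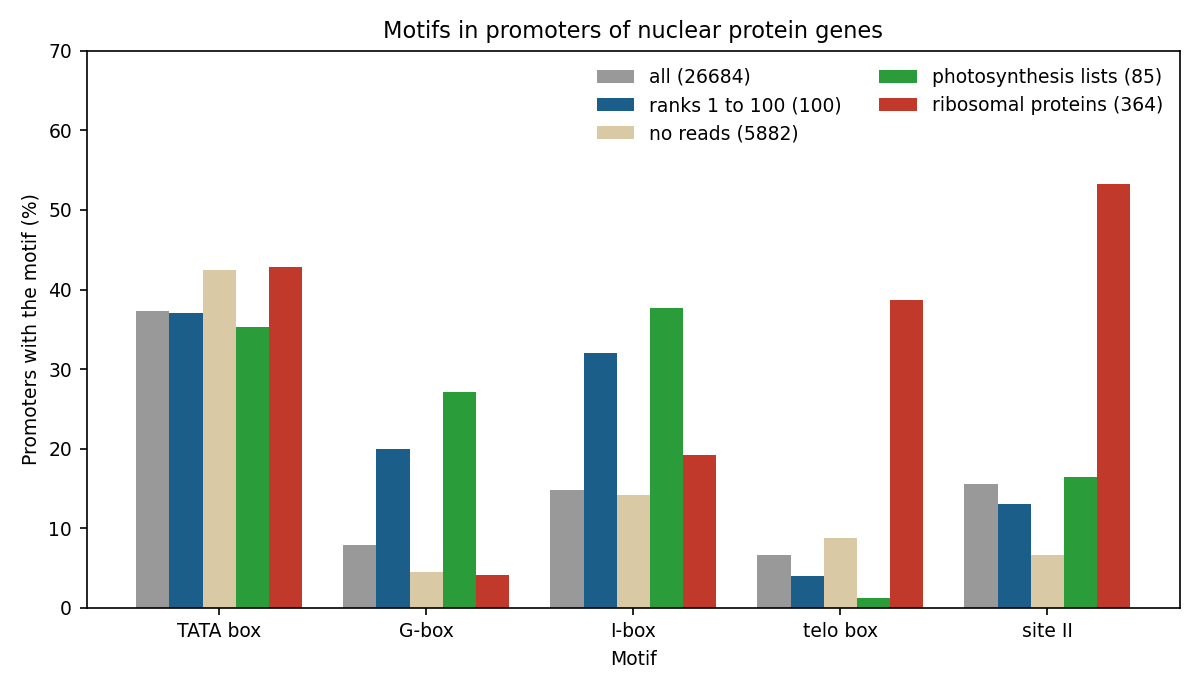
Share of promoters (percent) that hold each of 5 motifs in the 300-base window, for all nuclear protein genes, ranks 1 to 100, genes without reads, photosynthesis lists and ribosomal proteins (number of promoters in brackets). The telo box and site II stand highest in ribosomal proteins (38.7% and 53.3%) and the I-box in the photosynthesis lists (37.6%).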

How the data were processed

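Poly(A) RNA from a pool of 20 Col-0 plants was made into double-stranded cDNA, sheared to 300 to 500 bp and sequenced on an Illumina HiSeq. The authors mapped the reads and deposited read counts and RPKM values per gene, with CASAVA 1.7 and TAIR 10 named in the submitters' processing notes. No filter of multiply mapped reads is given in the sources used here. Counts listed as NA (10499 rows) were taken as 0. The deposited RPKM was recomputed from reads, length and the total of all rows and matched. Of the per-sample columns, 5 were not used, being the overexpression lines and a repeat of Col-0 RPKM. Columns of fold changes and q-values and the pathway tables were left out.

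Genes were ranked by RPKM without 15 ribosomal RNA rows. Members, gene lists and groups were chosen with earlier results of these data known. Annotation groups were text matches, protein groups on the text before the semicolon. Of 281 listed loci, 4 were left out because no annotation bore the name. Named genes were the 25 nuclear, 10 chloroplast protein and 10 mitochondrial genes of highest RPKM, the highest of each group, the 5 highest unknown and non-coding genes, the 3 highest transposable element genes and pseudogenes, and in each list the highest 3, the lowest and those without reads, or all members of lists of up to 6. Other members were named after their values were seen, to complete a family or range. Promoters and windows of 100 bases came from RefSeq TAIR10.1, whose transcripts had the table's length for 12178 of 32908 genes, so table lengths were used for levels. Scripts ran in Python 3.11.15 and were tested on simulated data. Alternatives were other level thresholds, read totals, length scalings and rank scales. With 1 library, no test was possible.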

Additional observations from a re-analysis of the deposited data

Results flagged for a closer look

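Ribosomal RNA rows, which were left out of all ranks, held 12.9% of all reads in the 4 nuclear rows, 13.5% in the 8 chloroplast rows and 0.234% in the 3 mitochondrial rows, a signal outside the main measurement. The 2 copies of the chloroplast 23S gene had 526569 and 525615 reads, and the nuclear rows AT3G41768 and AT2G01010 of 1808 bases had 665467 and 610857 reads.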

How the results depend on the processing

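The number of genes at 1 RPKM or more (17271) moved within 1.5 times under every alternative: 18803 at 0.5 RPKM, 11547 at 5 RPKM, 17832 at 10 reads, 22036 at 1 read and 17993 with the total of reads outside ribosomal RNA. The chloroplast share of 6.17% of summed RPKM was 3.19% by reads, 4.50% over genes of at least 300 bases and 6.19% over protein genes. The mitochondrial share of 0.185% was 0.0730% by reads and 0.188% over genes of at least 300 bases. It was 0.289% with all 145 chromosome 2 loci from AT2G07660 to AT2G07840 counted as mitochondrial, including those that share no window with that genome. The share of the top 100 genes (26.0%) was 22.8% by reads, 25.7% over genes of at least 300 bases and 24.4% over nuclear genes. The cause of these changes was not tested. Of 197 named genes, 45 moved over 2-fold in rank when ranked by reads, among them rpl32 (7 to 161) and psbM (19 to 541), and 10 did when lengths were reduced by 300 bases, which put atpE at rank 1 and RBCS1A at rank 4. Of 20 motif shares in rank bands, 17 stayed within their counting interval with ranks by reads. Of the values of single genes, annotation groups, lists and motif shares, 391 moved under an alternative and 281 did not. A move meant leaving the counting interval, except for group medians, where any difference counted. No paired analysis was possible because a single library was used, and no replicate could be left out.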
